A study of Rattus norvegicus with 12 samples.

Results

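The 10 genes described here encode enzymes and cofactors that make prostaglandins, thromboxane and leukotrienes from arachidonic acid. They were chosen by name, as Ptgs1, Ptgs2, Ptges, Ptges2, Ptges3, Ptgds, Ptgis, Tbxas1, Alox5 and Alox5ap. No rule on their values was used, but earlier results of these data were known when they were chosen. Of the 17268 gene symbols in the count table, 8 were on this list, and Ptges and Ptgis were not analysed here. RNA from the cerebral cortex of 12 male Sprague Dawley rats was sequenced, 1 library for each rat, and the rats formed 4 groups of 3. The Sham group had the carotid surgery but no clot was injected. In the Model group a clot of donor rat blood was placed in the middle cerebral artery to cause an embolic stroke, which was left untreated. The rt-PA rats had the same stroke and received recombinant tissue plasminogen activator, a drug that dissolves clots, at 6 h. The rt-PA+Acu rats had the stroke, acupuncture at the Shuigou (GV26) and Neiguan (PC6) points at 2 h and rt-PA at 6 h. No group received acupuncture without rt-PA, so the comparison of rt-PA+Acu with rt-PA was of acupuncture added to the drug. The hemisphere and the time of harvest for sequencing were not given in the sources used here.

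Prostaglandins and leukotrienes are short-lived lipid signals. Phospholipases and lipases free arachidonic acid from membrane and other lipids, the cyclooxygenases Ptgs1 and Ptgs2 turn it into prostaglandin H2, and separate synthases then make prostaglandin E2, prostaglandin D2, prostacyclin or thromboxane. In the other branch, the 5-lipoxygenase Alox5, with its helper protein Alox5ap, begins the synthesis of leukotrienes. In brain, Ptgs2 is known as an immediate early gene of excitatory neurons that is induced by activity and injury, Ptgds is abundant in meninges and oligodendrocytes, and Tbxas1 and Alox5ap are expressed by microglia and blood-derived myeloid cells.

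Total counts per library lay between 11678450 and 13616935. Levels are given in CPM, the count of a gene scaled by the size of its library and the TMM factor, and a count of 3, the limit that a count of 0 allows, stood for 0.208 to 0.262 CPM. That limit covers counting error only. Levels are compared between groups and not between genes, because CPM are not corrected for transcript length. The quasi-likelihood test of edgeR was run on the 6 libraries of each comparison, with p-values adjusted by the Benjamini-Hochberg method over all genes tested. The stroke comparison set Model against Sham, the rt-PA comparison set rt-PA against Model, and the acupuncture comparison set rt-PA+Acu against rt-PA, while rt-PA and rt-PA+Acu were each also set against Sham. A gene was called when its adjusted p was under 0.05 and its change over 2-fold, and p-values measured the spread between 3 rats per group. Markers of cortical neurons, such as Snap25 and Slc17a7, were present in every library, and the 6 of them summed to 3590 to 6030 CPM. Some genes had a single library of the 9 injured ones within the Sham range and the other 8 more than 1.5-fold outside it. That library was rt-PA+Acu replicate 1 at 37 genes, rt-PA+Acu replicate 2 at 15, Model replicate 3 at 11 and rt-PA+Acu replicate 3 at 1, and 0 of the 8 synthesis genes were among them.

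**Figure D1:**
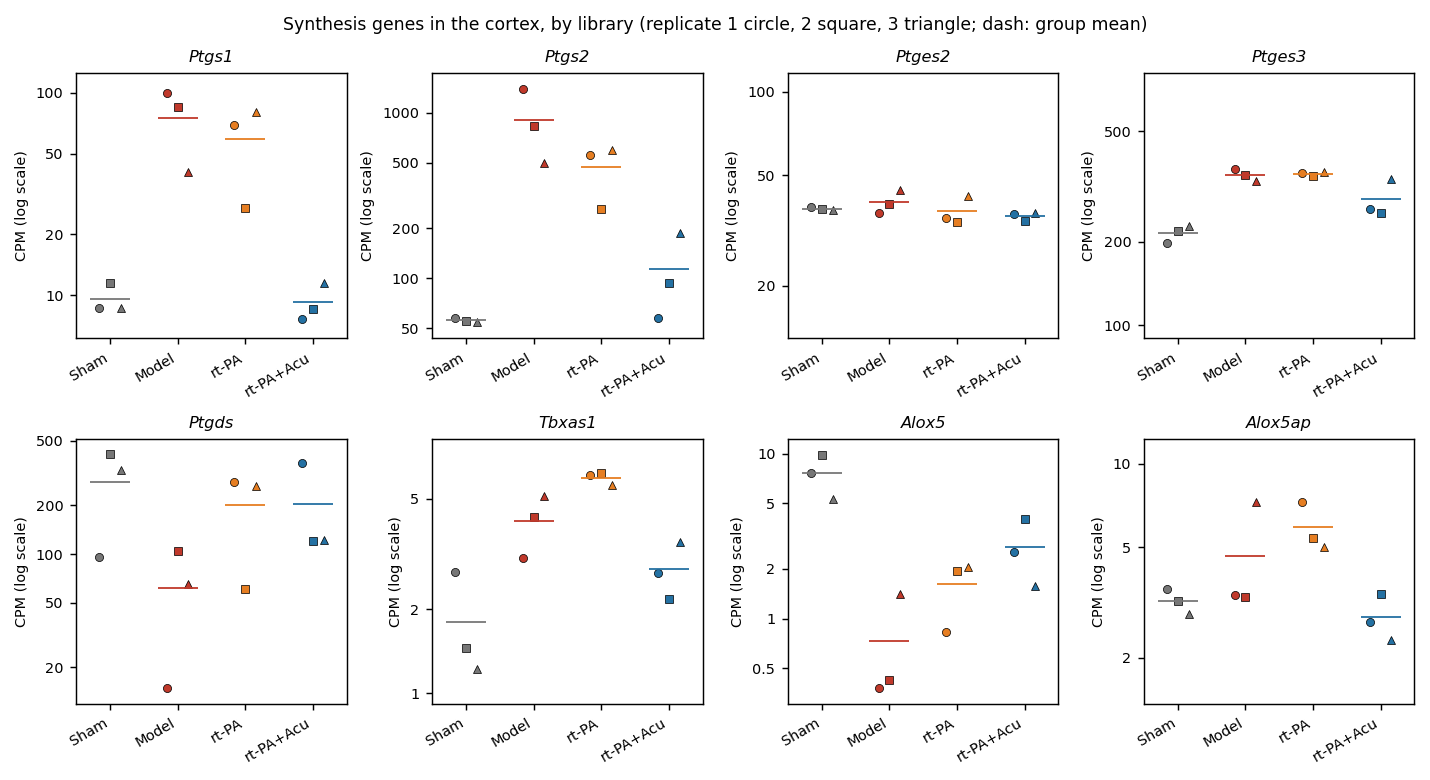
Level of each of the 8 synthesis genes in CPM (y axis, log scale) by group (x axis), with 1 point per library, replicate 1 as a circle, 2 as a square and 3 as a triangle, and a dash for the group mean (n = 3). Ptgs1 and Ptgs2 are high in all 6 Model and rt-PA libraries, Alox5 is highest in the 3 Sham libraries, and Ptges2 stays between 34 and 44.4 CPM throughout.

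The 2 cyclooxygenase genes were high in both stroke groups without acupuncture and lower in every rt-PA+Acu library. Ptgs2, the inducible cyclooxygenase, stood at 57.7, 55.4 and 54.3 CPM in the Sham libraries and at 1383, 830 and 498 CPM in the Model libraries. It was at 552, 261 and 597 CPM in the rt-PA libraries and at 58.1, 94.2 and 187 CPM in the rt-PA+Acu libraries. The Sham libraries were close together, every Model and rt-PA library lay above every Sham and rt-PA+Acu library, and rt-PA+Acu replicate 1 lay just above the highest Sham library. Ptgs2 rose 16.3-fold from Sham to Model, a log2 fold change of 4.03 (SE 0.35, n = 3 per group, adjusted p = 5.96e-05 from edgeR). It was 4.14-fold lower with acupuncture than with rt-PA alone, a log2 fold change of -2.05 (SE 0.47, adjusted p = 0.0146 from edgeR), and without rt-PA+Acu replicate 2 the adjusted p was 0.0597. The change from Model to rt-PA was -0.94 on the log2 scale (95% interval -1.89 to 0.011, adjusted p = 0.504 from edgeR), with overlapping libraries.

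Ptgs1, the cyclooxygenase that many tissues express constitutively, was also high in the Model and rt-PA groups. It was at 8.62, 11.5 and 8.64 CPM in Sham, 99.8, 85.3 and 40.5 CPM in Model, 69.4, 26.9 and 80.1 CPM in rt-PA, and 7.67, 8.55 and 11.6 CPM in rt-PA+Acu. The Sham and rt-PA+Acu libraries overlapped, and all Model and rt-PA libraries lay above it. Ptgs1 rose 7.88-fold from Sham to Model (log2 fold change 2.98, SE 0.33, adjusted p = 0.000187 from edgeR) and was 6.32-fold lower with acupuncture than with rt-PA alone (log2 fold change -2.66, SE 0.41, adjusted p = 0.00396). Between rt-PA+Acu and Sham its log2 difference was -0.047, with a 95% interval of -0.56 to 0.46.

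The 250 bases before the annotated start of both cyclooxygenase genes and of Alox5 are printed because these 3 genes had the smallest adjusted p of the 8 among those called in the stroke comparison. The sequences are those of RefSeq on build GRCr8, which is not the build of the counts (mRatBN7.2), and a RefSeq promoter was matched for 7 of the 10 genes. Ptgs2 lies at chr13:64713813-64714062 on the plus strand, Ptgs1 at chr3:39981169-39981418 on the plus strand, and Alox5 at chr4:151251127-151251376 on the minus strand. Capitals mark every match, on either strand, to 8 short motifs. Each is printed from 5' to 3' in the direction of its gene, so that the last base is the one before the start.
Ptgs2: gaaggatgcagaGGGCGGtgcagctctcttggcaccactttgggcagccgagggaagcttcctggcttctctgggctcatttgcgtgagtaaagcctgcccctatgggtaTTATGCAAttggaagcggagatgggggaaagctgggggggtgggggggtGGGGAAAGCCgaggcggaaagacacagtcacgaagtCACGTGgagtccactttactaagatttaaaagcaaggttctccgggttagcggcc
Ptgs1: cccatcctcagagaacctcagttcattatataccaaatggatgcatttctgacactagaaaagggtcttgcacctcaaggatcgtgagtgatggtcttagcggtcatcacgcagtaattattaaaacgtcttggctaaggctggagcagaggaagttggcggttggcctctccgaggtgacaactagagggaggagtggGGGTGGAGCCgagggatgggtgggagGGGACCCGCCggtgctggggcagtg
Alox5: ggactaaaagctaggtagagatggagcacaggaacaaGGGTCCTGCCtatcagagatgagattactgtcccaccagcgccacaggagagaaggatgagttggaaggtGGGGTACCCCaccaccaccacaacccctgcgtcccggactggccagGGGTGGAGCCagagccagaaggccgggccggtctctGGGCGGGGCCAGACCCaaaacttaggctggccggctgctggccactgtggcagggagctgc

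The motifs searched were the TATA box (TATAAA), found in 12.9% of all 33469 RefSeq promoter windows of this length, and the core of the cAMP response element (TGACG), found in 18.2%. The AP-1 site (TGANTCA) was in 6.34% of windows, the E-box (CACGTG) in 5.59% and the GC box (GGGCGG) in 30.5%. The EGR site (GCGNGGGCG) was in 4.29%, the C/EBP site (TTGCNNAA) in 9.22%, and an NF-kappaB-like site, with any 5 bases between GGG and CC, in 42.3%. Counted from the start of the gene, the Ptgs2 window held an E-box from -55 to -50, a C/EBP match on the opposite strand from -140 to -133, a GC box from -238 to -233 and an NF-kappaB-like match from -91 to -82. In the Ptgs1 window the matches were 2 NF-kappaB-like ones, from -51 to -42 and from -25 to -16. Alox5 had 6 NF-kappaB-like matches and a GC box from -61 to -56, which overlapped 2 of them. Ptgs1 and Ptgs2, which moved alike, shared a match only to the NF-kappaB-like letters, the commonest of the 8 motifs in these windows. A match is a description of the sequence and not a measured binding site.

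Of the prostaglandin E synthase genes analysed, Ptges2 passed the test in no comparison and Ptges3 rose by less than 2-fold with stroke. Ptges2, a membrane-associated synthase, stood at 37.5 to 38.5 CPM in Sham, 36.5 to 44.4 CPM in Model, 34 to 42.2 CPM in rt-PA and 34.4 to 36.5 CPM in rt-PA+Acu. Its largest log2 difference over the 5 comparisons was -0.11, in the rt-PA comparison (95% interval -0.41 to 0.19). All adjusted p-values of Ptges2 were at or above 0.51 (edgeR).

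Ptges3, also known as p23, is a cytosolic prostaglandin E synthase and a co-chaperone of Hsp90. It was at 198, 218 and 227 CPM in Sham, 366, 348 and 330 CPM in Model, 354, 344 and 355 CPM in rt-PA, and 263, 254 and 337 CPM in rt-PA+Acu. The Model and rt-PA libraries lay above all Sham libraries, and the rt-PA+Acu libraries lay above Sham and below rt-PA. From Sham to Model it rose 1.63-fold (log2 fold change 0.71, SE 0.09, adjusted p = 0.000324 from edgeR), which was under the 2-fold threshold for a call. Its log2 difference in the acupuncture comparison was -0.30 (95% interval -0.62 to 0.015, adjusted p = 0.123 from edgeR).

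Tbxas1, the thromboxane synthase, was a gene of low counts, with 14 to 88 per library. Its levels were 2.74, 1.45 and 1.22 CPM in Sham, 3.05, 4.32 and 5.12 CPM in Model, 6.11, 6.18 and 5.61 CPM in rt-PA, and 2.7, 2.18 and 3.51 CPM in rt-PA+Acu. The highest Sham library lay close to the lowest Model library, whereas all rt-PA libraries lay above those of the other 3 groups. Tbxas1 rose 2.3-fold from Sham to Model (log2 fold change 1.20, SE 0.39, adjusted p = 0.0284 from edgeR) and 3.24-fold from Sham to rt-PA (log2 fold change 1.70, SE 0.33, adjusted p = 0.00308). It was 2.12-fold lower with acupuncture than with rt-PA alone (log2 fold change -1.08, SE 0.26, adjusted p = 0.0174 from edgeR). The call in the stroke comparison was lost without Sham replicate 2 or 3 or Model replicate 2 or 3 (adjusted p up to 0.1), and that in the acupuncture comparison without rt-PA replicate 1 or rt-PA+Acu replicate 1 or 2 (up to 0.0625).

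Ptgds, the lipocalin-type prostaglandin D synthase, varied widely within groups. It was at 96.5, 413 and 328 CPM in Sham, 14.9, 104 and 65.2 CPM in Model, 279, 60.9 and 261 CPM in rt-PA, and 364, 121 and 122 CPM in rt-PA+Acu. The lowest and highest libraries of 1 group differed 4.28-fold in Sham and 6.99-fold in Model, and Sham replicate 1 lay below Model replicate 2. Its fall from Sham to Model had a log2 fold change of -2.18 (SE 0.68, adjusted p = 0.026 from edgeR), and without Sham replicate 2 or 3 the adjusted p was 0.0886 or 0.0703. In the acupuncture comparison the log2 difference was 0.011, with a 95% interval of -1.42 to 1.45 that leaves room for a change of over 2-fold in either direction.

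Marker genes of the tissues that express Ptgds varied between the same libraries. The summed level of the meninges and fibroblast markers, of which 5 of 6 were analysed, was 31.4, 74.9 and 65.5 CPM in Sham and 20.2, 48.1 and 21.9 CPM in Model. It was 210, 53.2 and 132 CPM in rt-PA and 98.4, 47.6 and 54.2 CPM in rt-PA+Acu. Within every group, the libraries stood in the same order by this sum as by Ptgds. In rt-PA+Acu, however, replicates 2 and 3 were almost level for Ptgds, at 120.9 and 121.5 CPM. The markers in the meninges and fibroblast sum did not move together between groups. Slc6a13 had a mean of 7.02 CPM in Sham, 0.275 CPM in Model and 0.0942 CPM in rt-PA, and Dcn had means of 9.95, 6.93 and 35.2 CPM. The sum of 6 oligodendrocyte markers ranged from 12000 to 17900 CPM in Sham, from 1670 to 8500 CPM in Model, from 2690 to 11400 CPM in rt-PA and from 3210 to 21100 CPM in rt-PA+Acu. This sum did not keep the order of Ptgds, being 2690, 11400 and 3360 CPM in the rt-PA libraries, for example. The sum of 6 choroid plexus markers was 0.886 to 2.37 CPM in Sham, 9.5 to 17.1 CPM in Model, 3.47 to 6.71 CPM in rt-PA and 0.873 to 1.87 CPM in rt-PA+Acu, opposite in direction to Ptgds in the stroke comparison. Most of it in Model was Kl, with a mean of 0.538 CPM in Sham and 10.9 CPM in Model, while Otx2 was at 0 counts in every library and Ttr had at most 3. In bulk tissue, fewer cells of a type and less RNA per cell cannot be told apart, and the part of the dissected tissue in the Ptgds values was not tested.

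**Figure D2:**
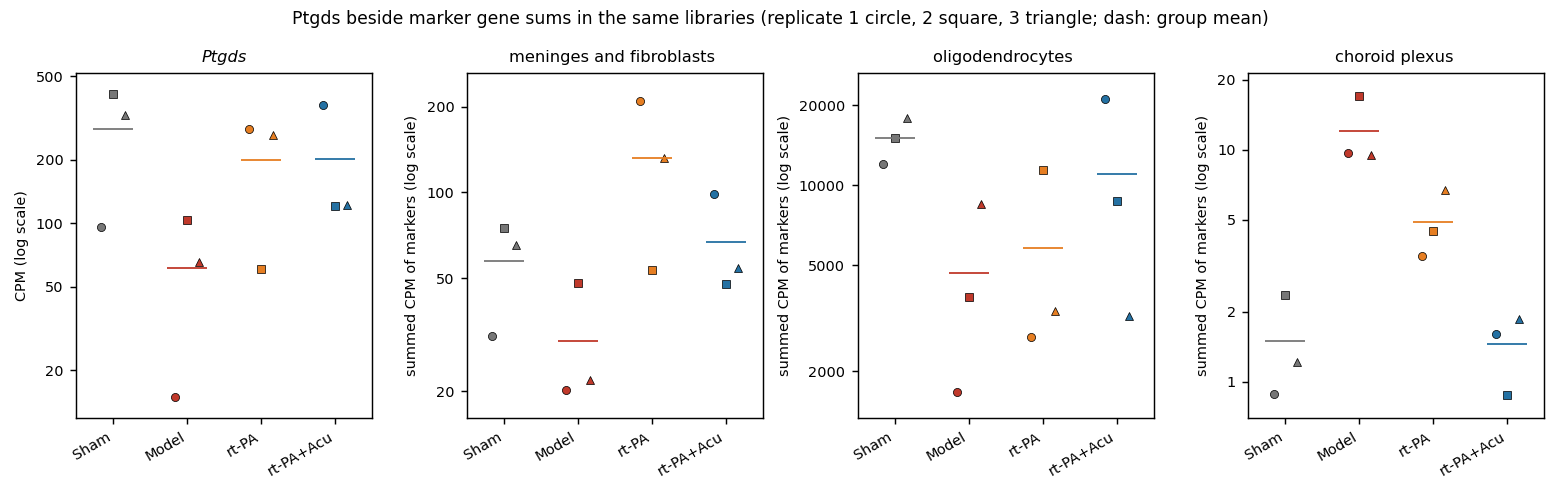
Ptgds in CPM and the summed CPM of meninges and fibroblast, oligodendrocyte and choroid plexus markers (y axes, log scale) by group (x axis), with 1 point per library, replicate 1 as a circle, 2 as a square and 3 as a triangle, and a dash for the group mean (n = 3). Within each group the libraries keep the same order in the Ptgds and the meninges panels, from 31.4 to 74.9 CPM of meninges markers in Sham for example. In rt-PA+Acu, replicates 2 and 3 are almost level for Ptgds. The oligodendrocyte panel does not keep the order of Ptgds.

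In the leukotriene branch, the 2 genes did not move together. Alox5, the 5-lipoxygenase, stood at 7.65, 9.86 and 5.33 CPM in Sham and at 0.382, 0.423 and 1.4 CPM in Model. It was at 0.833, 1.94 and 2.07 CPM in rt-PA and at 2.53, 4.01 and 1.57 CPM in rt-PA+Acu. Every Sham library lay above every library of the 3 stroke groups. The fall from Sham to Model was 10.2-fold (log2 fold change -3.36, SE 0.49, adjusted p = 0.000726 from edgeR) and that from Sham to rt-PA 4.79-fold (log2 fold change -2.26, SE 0.39, adjusted p = 0.00182). The Model libraries held as few as 5 counts, so the size of the fold is imprecise, with a 95% interval of -4.49 to -2.23 on the log2 scale. In rt-PA+Acu the log2 difference from rt-PA was 0.74 (95% interval -0.39 to 1.86, adjusted p = 0.267 from edgeR), and that from Sham was -1.51 (95% interval -2.37 to -0.64, adjusted p = 0.0613).

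Alox5ap, the protein that presents arachidonic acid to Alox5, was at 3.54, 3.21 and 2.88 CPM in Sham, 3.36, 3.3 and 7.27 CPM in Model, 7.29, 5.39 and 5.02 CPM in rt-PA, and 2.7, 3.4 and 2.31 CPM in rt-PA+Acu. Model replicates 1 and 2 lay within the Sham range and replicate 3 above it, and all rt-PA libraries lay above all Sham and rt-PA+Acu libraries. Its log2 difference in the stroke comparison was 0.53 (adjusted p = 0.241 from edgeR), and 0.06 without Model replicate 3. It was 2.1-fold lower with acupuncture than with rt-PA alone (log2 fold change -1.07, SE 0.28, adjusted p = 0.0216 from edgeR), a call that was lost without rt-PA replicate 1 or rt-PA+Acu replicate 1 or 3. From Sham to rt-PA it rose 1.81-fold (adjusted p = 0.017), under the threshold for a call.

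Marker sums of the cells that carry Alox5ap, Tbxas1 and Alox5 are set beside these values. The sum of 6 microglia markers was 467 to 575 CPM in Sham and 361 to 428 CPM over the 3 stroke groups, and Siglech was at 0 counts in all but the rt-PA libraries. The sum of 6 monocyte and macrophage markers was 56.3 to 75.9 CPM in Sham, 163 to 239 CPM in Model, 241 to 447 CPM in rt-PA and 32 to 48.1 CPM in rt-PA+Acu. Those of neutrophils summed to 7.26 to 11.8 CPM in Sham, 4.96 to 16.9 CPM in Model, 14.8 to 81.5 CPM in rt-PA and 3.66 to 5.24 CPM in rt-PA+Acu, and their granule genes Mpo and Ltf were at 0 counts in every library. Platelet markers, which matter for thromboxane, summed to 2.17 to 3.75 CPM in Sham, 7.1 to 10.6 CPM in Model, 4.74 to 9.16 CPM in rt-PA and 2.76 to 3.14 CPM in rt-PA+Acu, with Ppbp at 0 throughout. Tbxas1 and Alox5ap were highest in the group in which the monocyte and neutrophil sums were highest. Alox5 went the other way, with a mean of 7.61 CPM in Sham and 0.736 CPM in Model, while the monocyte and macrophage sum rose. Most of that rise was in Cd14, with means of 0.826 and 91.2 CPM, and Lyz2, with 54.2 and 97.5 CPM. Means of Mrc1 were 5.97 and 7.88 CPM, those of Cd163 2.75 and 4.77 CPM, and those of Ccr2 0.247 and 1.37 CPM. Of the 5 markers of this list tested in the stroke comparison, only Ccr2 and Cd14 were called. The part of these cells in the values of Tbxas1, Alox5ap and Alox5 was not tested.

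Over the 8 genes, 5 were called with stroke and 4 with acupuncture. In the stroke comparison, 3 rose (Ptgs1, Ptgs2 and Tbxas1), 2 fell (Ptgds and Alox5) and 3 were not called, where 21.5% of all 12884 genes tested were called, 9.43% higher and 12% lower. In the acupuncture comparison, 4 fell (Ptgs1, Ptgs2, Tbxas1 and Alox5ap) and 0 rose, where 15.3% of all 12999 genes were called and 8.16% fell. These comparisons share no libraries, and the log2 fold changes of the 8 genes had opposite signs in 8 of 8, where 81.6% of the 12753 genes tested in both did, although those of Ptges2 and Ptgds in rt-PA+Acu were near 0 and changed sign when single libraries were left out. Between rt-PA and Sham, 3 rose (Ptgs1, Ptgs2 and Tbxas1) and 1 fell (Alox5), where 22.6% of all 13023 genes were called. All 8 genes passed the filter on low counts in each of the 5 comparisons.

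Addition of rt-PA alone gave no call among the 8 genes. In the rt-PA comparison, edgeR and DESeq2 each called 0 of them, with 0% of all 12941 genes called by edgeR, and at an unadjusted p under 0.05 and over 2-fold only Ptgds passed, where 1.86% of all genes did. Its log2 difference there was 1.71 (95% interval 0.020 to 3.40, adjusted p = 0.501 from edgeR), with overlapping libraries. The groups were apart for 1 of the 8, Tbxas1, against 15.9% of all genes, with a log2 difference of 0.52 (adjusted p = 0.553).

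Between rt-PA+Acu and Sham, edgeR called 0 of the 8 genes, where it called 2.06% of all 12775 genes. At an unadjusted p under 0.05 and over 2-fold 2 passed, Ptgs2 and Alox5, where 4.56% of all genes did, and DESeq2 called the same 2 genes. Ptgs2 was 2.04-fold higher in rt-PA+Acu (log2 difference 1.02, 95% interval 0.19 to 1.86, adjusted p = 0.143 from edgeR), and 1.34 on the log2 scale without rt-PA+Acu replicate 1 (adjusted p = 0.0255). The libraries of both groups were apart for 4 of the 8 genes, namely Ptgs2, Ptges2, Ptges3 and Alox5, against 30.8% of all genes. The median log2 fold change of the 8 genes was 0.62 in the stroke comparison, 0.18 in the rt-PA comparison, -0.69 in the acupuncture comparison, 0.77 between rt-PA and Sham and -0.068 for rt-PA+Acu against Sham, where that of all genes tested lay between -0.0027 and 0.018. Comparisons that share a group are not independent of each other.

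**Figure D3:**
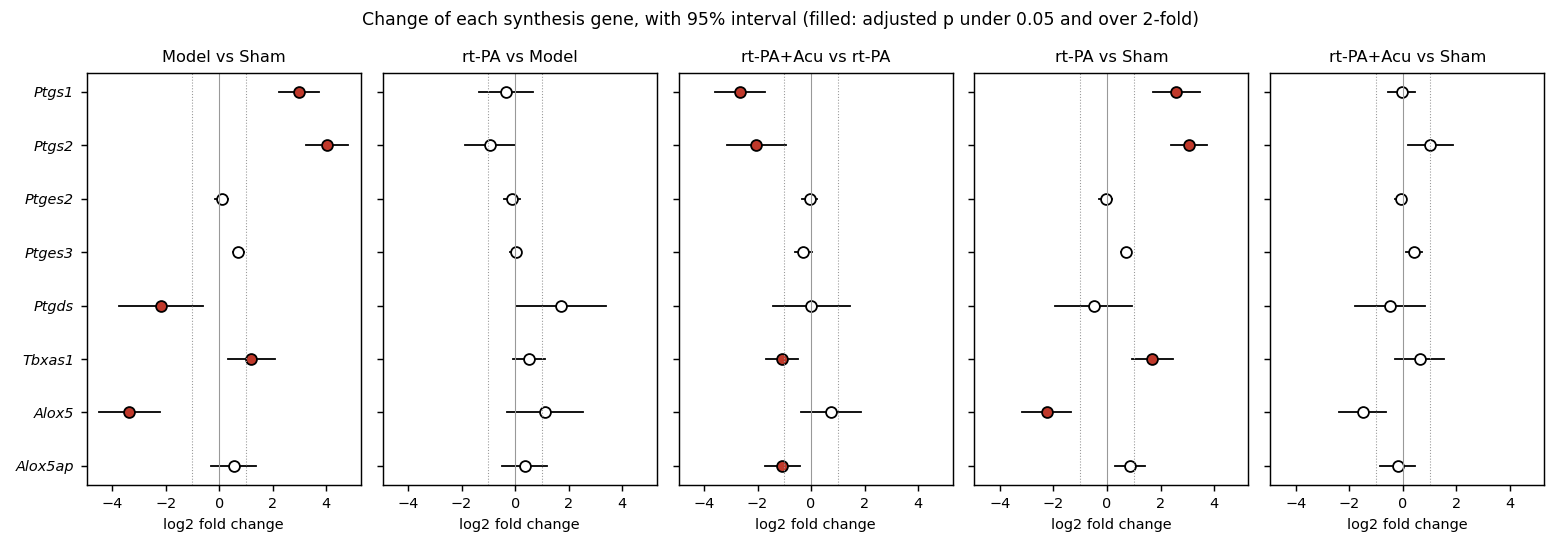
Log2 fold change (x axis) of each of the 8 synthesis genes (rows) in 5 comparisons (panels), with bars for the 95% interval from edgeR, filled points for genes called and dotted lines at 2-fold. Ptgs1 and Ptgs2 lie at 2.98 and 4.03 in the panel of Model vs Sham and at -2.66 and -2.05 in that of rt-PA+Acu vs rt-PA, while no point is filled in rt-PA vs Model or rt-PA+Acu vs Sham.

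The rest of the pathway was described with 49 genes in 4 lists by role, of which 44 were analysed. Of 31 tested in the stroke comparison, 6 rose, 9 fell and 16 were not called. In the acupuncture comparison, 4 of 32 rose, 7 fell and 21 were not called. From Model to rt-PA 0 of 32 were called and 1 passed an unadjusted p under 0.05 and over 2-fold, namely Alox15. The shares called in the stroke and acupuncture comparisons were 48.4% and 34.4%, beside 21.5% and 15.3% of all genes. With stroke, the share was 50% for release, 45.5% for other synthesis, 20% for breakdown and transport and 71.4% for receptors. With acupuncture, the shares of these lists were 37.5%, 18.2%, 20% and 62.5% in the same order.

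The list for the release of arachidonic acid also holds the endocannabinoid enzymes Mgll, Faah, Dagla and Daglb. Of its genes, 4 of 8 tested were called lower in the stroke comparison, 0 were called higher and 4 were not called. The median log2 fold change was -0.85. Mgll, the lipase that breaks down the endocannabinoid 2-arachidonoylglycerol, stood at 454, 474 and 439 CPM in Sham, 78.4, 95.3 and 174 CPM in Model, 93.9, 123 and 126 CPM in rt-PA, and 300, 269 and 198 CPM in rt-PA+Acu. Only the Model and rt-PA libraries overlapped, and the rt-PA+Acu libraries lay between those of rt-PA and Sham. It fell 3.92-fold from Sham to Model (log2 fold change -1.97, SE 0.26, adjusted p = 0.000434 from edgeR) and was 2.24-fold higher with acupuncture than with rt-PA alone (log2 fold change 1.16, SE 0.18, adjusted p = 0.00448). Pla2g4e, a calcium-dependent phospholipase, fell from 18.1 to 22.3 CPM in Sham to 3.13 to 4.66 CPM in Model, and was at 13.2 to 25 CPM in rt-PA+Acu against 5 to 7.55 CPM in rt-PA, with a log2 fold change of -2.25 (adjusted p = 7.95e-05) and then 1.77 (adjusted p = 0.00474).

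The other genes of this list called in the stroke comparison were Faah and Pla2g6. Faah, the hydrolase of the endocannabinoid anandamide, had log2 fold changes of -1.03 in the stroke comparison (adjusted p = 0.000471) and 1.44 in the acupuncture comparison (adjusted p = 0.0056). Its first value lay at the 2-fold threshold and was -0.96 with library size alone and -0.97 without Sham replicate 1, Sham replicate 3 or Model replicate 3. Pla2g6, a calcium-independent phospholipase, had log2 fold changes of -1.12 (adjusted p = 0.000214) and 0.67 (adjusted p = 0.0339, under 2-fold). Levels of 2 phospholipases of this list were higher in Model than in Sham. Pla2g4a, the cytosolic phospholipase that releases arachidonic acid, stood at 9.1, 9.02 and 7.6 CPM in Sham, 13, 14.6 and 15.9 CPM in Model, 20.8, 17.1 and 17.3 CPM in rt-PA, and 11.5, 11.2 and 18 CPM in rt-PA+Acu. Every library of the stroke groups lay above every Sham library, and its log2 fold change was 0.76 in the stroke comparison (adjusted p = 0.005, under 2-fold) and 1.08 between rt-PA and Sham (adjusted p = 0.00079, edgeR), where it was called. Pla2g4b, a related phospholipase, had log2 fold changes of 0.58 in the stroke comparison (adjusted p = 0.0365) and -0.79 in the acupuncture comparison (adjusted p = 0.0435), both under 2-fold.

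Among the other synthesis genes, 2 rose and 3 fell of 11 tested in the stroke comparison, and 6 were not called. Aloxe3, an epidermal-type lipoxygenase that turns hydroperoxides into hepoxilins, was at 5.48, 3.52 and 2.62 CPM in Sham, 37.6, 39.3 and 37.7 CPM in Model, 27.7, 14 and 29 CPM in rt-PA, and 5.65, 2.36 and 3.66 CPM in rt-PA+Acu. All Model and rt-PA libraries lay above all Sham and rt-PA+Acu libraries, as they did for the cyclooxygenases. Its log2 fold change was 3.30 in the stroke comparison (SE 0.24, adjusted p = 3.05e-05 from edgeR) and -2.60 in the acupuncture comparison (SE 0.39, adjusted p = 0.00378).

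Cbr1, a carbonyl reductase that can turn prostaglandin E2 into prostaglandin F2alpha, was the only gene of the 4 lists called between rt-PA+Acu and Sham. It stood at 7.33, 7.03 and 5.76 CPM in Sham, 59.9, 47.8 and 10.2 CPM in Model, 34.3, 31 and 30.8 CPM in rt-PA, and 24, 24.7 and 25 CPM in rt-PA+Acu. The Model replicate 3 library lay nearer to Sham than to the other Model libraries, and all rt-PA+Acu libraries lay above all Sham libraries. Its log2 fold change was 2.56 in the stroke comparison (SE 0.56, adjusted p = 0.00514) and 3.01 there without Model replicate 3. It was -0.38 in the acupuncture comparison (adjusted p = 0.0366, under 2-fold) and 1.87 between rt-PA+Acu and Sham (SE 0.15, adjusted p = 0.00188, edgeR).

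Of the leukotriene C4 synthase genes, Ltc4s was close to the limit of detection after stroke. It had 18, 13 and 30 counts in Sham, 0, 1 and 2 in Model, 0 in each rt-PA library, and 3, 8 and 4 in rt-PA+Acu. Against a floor of 3 counts per library, its mean level in Sham was 6.93 times the floor in Model and 7.85 times that in rt-PA. Its mean level in rt-PA+Acu, where replicate 1 held 3 counts, was 1.94 times the floor in rt-PA. In the acupuncture comparison it did not pass the filter on low counts and was not tested. Mgst2 and Mgst3, microsomal enzymes of the same family, had log2 differences of 0.65 (adjusted p = 0.374) and -0.77 (adjusted p = 0.00536) in the stroke comparison, and of -2.06 (adjusted p = 0.0217) and 0.96 (adjusted p = 0.00809) in the acupuncture comparison. The first value of Mgst2 was -0.037 without Model replicate 3, and its call in the acupuncture comparison was lost without rt-PA replicate 3 or rt-PA+Acu replicate 1 or 2 (adjusted p up to 0.0769).

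The other genes named from this list were lower in Model than in Sham. Ggt1, which removes glutamate from leukotriene C4, fell 4.54-fold from Sham to Model (log2 fold change -2.18, adjusted p = 0.00551), and its log2 difference in the acupuncture comparison was 0.32 (adjusted p = 0.643). Alox15, a lipoxygenase of macrophages and other cells, had a log2 fold change of -3.05 in the stroke comparison (adjusted p = 0.0296) that rested on Sham replicate 1, at 13 CPM beside 3.21 and 0.698 CPM in the other Sham libraries. Without that library it was -1.55 (adjusted p = 0.147), and the call was also lost without Model replicate 2 or 3. Ptgr2, a reductase that breaks down prostaglandins, had a log2 fold change of -0.9998 in the stroke comparison (adjusted p = 0.000229), at the 2-fold threshold itself, and 0.45 in the acupuncture comparison (adjusted p = 0.0288).

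Among the 5 genes of breakdown and transport, 1 was called in each of these comparisons. This was Slco2a1, the transporter that takes up prostaglandins before they are broken down. It was at 2.01, 5.27 and 3.93 CPM in Sham, 31.5, 18.3 and 19.8 CPM in Model, 26.5, 19.8 and 35 CPM in rt-PA, and 2.53, 0.873 and 4.25 CPM in rt-PA+Acu. The libraries of Model and rt-PA lay above all of Sham and rt-PA+Acu, with a log2 fold change of 2.64 in the stroke comparison (SE 0.35, adjusted p = 0.000458) and -3.38 in the acupuncture comparison (SE 0.48, adjusted p = 0.00307). Summed endothelial markers, of which 5 of 6 were analysed, were at 122 to 166 CPM in Sham, 194 to 348 CPM in Model, 238 to 354 CPM in rt-PA and 75.6 to 86.2 CPM in rt-PA+Acu, and their part in the Slco2a1 values was not tested. The markers did not move together, since Kdr rose in the stroke comparison from a mean of 16.4 to 117 CPM (log2 fold change 2.84, adjusted p = 2.6e-05) and Emcn fell from 12.1 to 5.06 CPM (log2 fold change -1.25, adjusted p = 0.00189), while Tek was at 49.2 and 34.2 CPM (adjusted p = 0.0917). Hpgd, the dehydrogenase that inactivates prostaglandins, had log2 differences of -0.53 (adjusted p = 0.256) and 0.64 (adjusted p = 0.197), in the stroke and acupuncture comparisons. The transporters Slco3a1 and Abcc1 had log2 differences of 0.61 and 0.47 with stroke (adjusted p = 0.00376 and 0.00503) and of -0.52 and -0.18 with acupuncture (adjusted p = 0.0145 and 0.269), all under 2-fold.

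On the receptor list, 3 of 7 genes tested rose and 2 fell in the stroke comparison. In the acupuncture comparison 1 of 8 rose and 4 fell. These counts include Ptgfrn, which is not itself a prostanoid receptor. It was among those that fell with stroke and was the 1 that rose with acupuncture. Ptger3, which encodes the EP3 receptor of prostaglandin E2, stood at 4.19, 1.15 and 2.1 CPM in Sham, 32.4, 22.9 and 11.8 CPM in Model, 16.1, 6.68 and 20 CPM in rt-PA, and 0.758, 2.18 and 3.43 CPM in rt-PA+Acu. Its Model and rt-PA libraries lay above all others, with a log2 fold change of 3.18 in the stroke comparison (SE 0.50, adjusted p = 0.00102 from edgeR) and -2.73 in the acupuncture comparison (SE 0.57, adjusted p = 0.0105). Ptgfr, the prostaglandin F2alpha receptor, rose 5.81-fold from 0.242 to 1.45 CPM in Sham to 4.58 to 6.69 CPM in Model (log2 fold change 2.54, adjusted p = 0.00317). Ptger2, the EP2 receptor, rose 3.99-fold from 0.306 to 0.403 CPM in Sham to 0.847 to 1.9 CPM in Model (log2 fold change 1.99, adjusted p = 0.0101).

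In the acupuncture comparison, Ptgfr and Ptger2 had log2 fold changes of -1.31 (adjusted p = 0.0423) and -1.56 (adjusted p = 0.0243), and that of Tbxa2r, the thromboxane receptor, was -1.49 (adjusted p = 0.0493). Each of these 3 calls was lost in 4 or 5 of the 6 fits that left out 1 library. That of Tbxa2r was also lost with DESeq2 (adjusted p = 0.0706) and with no filter on low counts (adjusted p = 0.0696). Ptger4 and Ptgir, the EP4 and prostacyclin receptors, had at most 3 counts in each Sham library. Their mean levels were 2.98 and 2.12 times that floor in Model, and 3.9 and 4.08 times that floor in rt-PA. The mean level of Ptgir in rt-PA was 4.05 times the floor in rt-PA+Acu. In each of these comparisons the gene did not pass the filter on low counts and was not tested. Ptger1, the EP1 receptor, had a log2 difference of 0.078 in the stroke comparison (95% interval -0.29 to 0.44) and was 1.66-fold lower with acupuncture than with rt-PA alone (adjusted p = 0.0257, edgeR).

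Cysltr2, a receptor of cysteinyl leukotrienes, fell 3.37-fold from Sham to Model, in the same direction as Alox5 and Ltc4s. It was at 3.38, 3.36 and 5.41 CPM in Sham and at 1.45, 1.61 and 0.496 CPM in Model, with a log2 fold change of -1.75 (SE 0.45, adjusted p = 0.0109 from edgeR). In rt-PA+Acu it was at 1.6, 3.32 and 0.672 CPM, with a log2 difference from rt-PA of 1.46 (95% interval -0.31 to 3.23, adjusted p = 0.171). Ptgfrn, a membrane protein that associates with the prostaglandin F2alpha receptor, fell 2.4-fold from Sham to Model (adjusted p = 0.000428) and was 2.24-fold higher with acupuncture than with rt-PA alone (adjusted p = 0.00304).

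**Figure D4:**
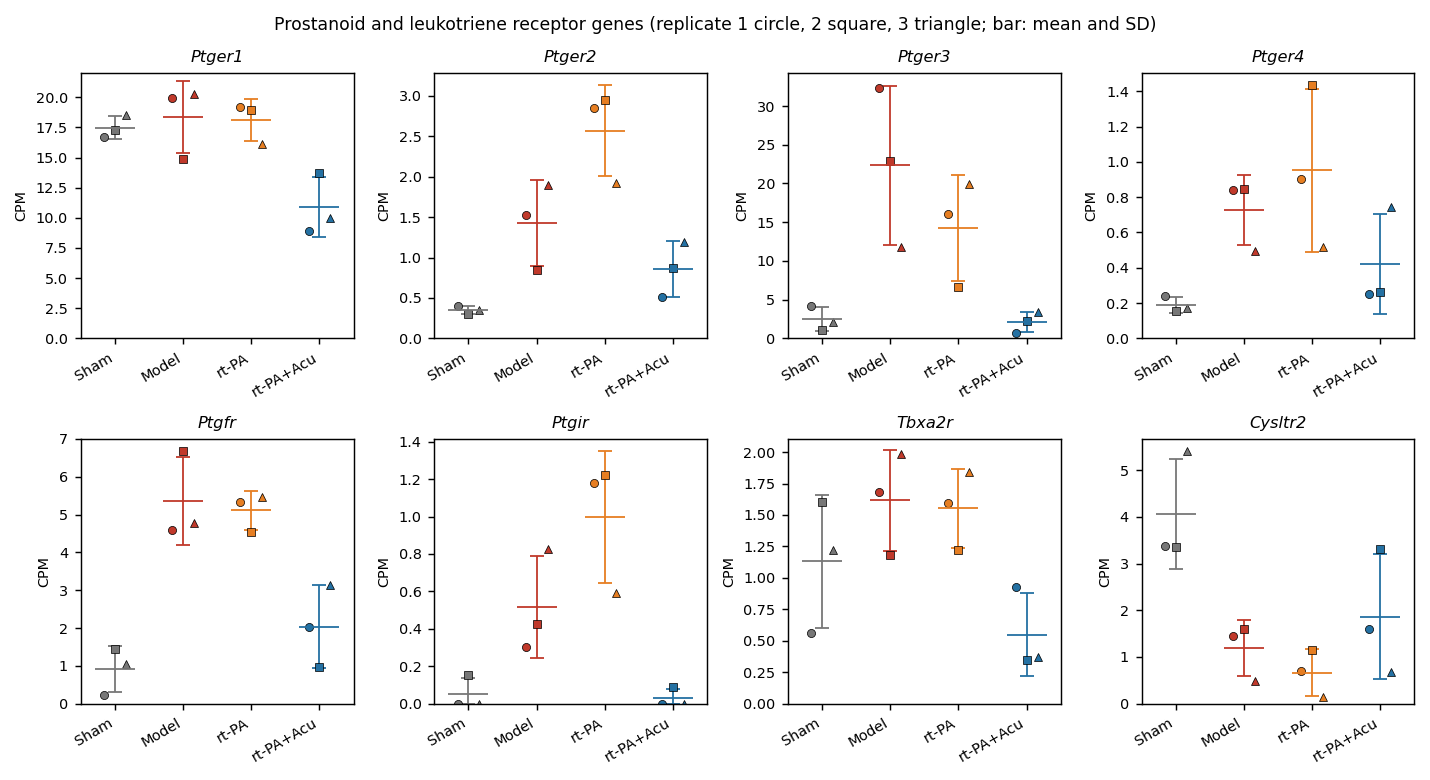
Level of 8 prostanoid and leukotriene receptor genes in CPM (y axes, each with its own scale) by group (x axis), with 1 point per library, replicate 1 as a circle, 2 as a square and 3 as a triangle, and a bar for the group mean and SD (n = 3). Ptger3 is at 6.68 CPM or more in all Model and rt-PA libraries and at most 4.19 CPM in the others, while Cysltr2 is highest in Sham.

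**Figure D5:**
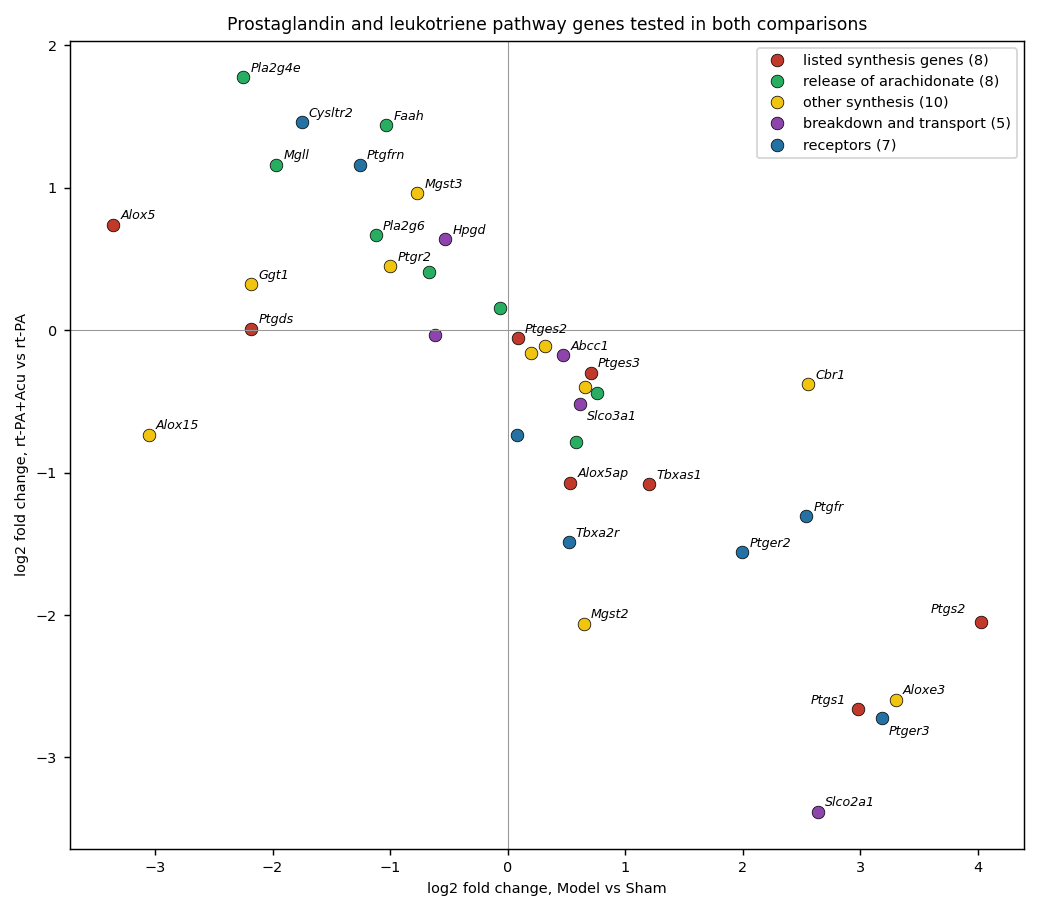
Log2 fold change in the acupuncture comparison, rt-PA+Acu against rt-PA (y axis), and in the stroke comparison, Model against Sham (x axis), for the 38 pathway genes tested in both comparisons, which share no libraries, coloured by role. Ptgs1, Ptgs2, Aloxe3, Ptger3 and Slco2a1 lie at the lower right, above 2.6 on the x axis and below -2 on the y axis, and Cbr1 lies apart from them at 2.56 and -0.38.

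The genes with the profile most like that of each synthesis gene were found by the root mean square difference in log2 CPM, after centring, over the 12 libraries and 12736 genes. For Ptgs1 the nearest was Stat5a (0.32, where Ptgs1 itself varied by 1.43 about its mean), followed by Npy (0.35) and Adam12 (0.36). For Ptgs2 they were Hsf2bp (0.35, beside a variation of 1.66), Kcnk10 (0.39) and Prkcd (0.43). Alox5 was nearest to Etnppl (0.39, beside 1.30), Prex2 (0.44) and Acacb (0.45), and Tbxas1 to Tap1 (0.17, beside 0.71), Stxbp2 (0.26) and Hcls1 (0.26).

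Ptgds was nearest to Coch (0.57, beside 1.33), Igf2 (0.58) and Slc13a4 (0.59), the differences being the largest of the 8 genes on this scale. Alox5ap was nearest to St3gal1 (0.21, beside 0.50), Cd151 (0.22) and Hyal2 (0.23). Ptges3 was nearest to Psmd14 (0.06, beside 0.31), Tmed7 (0.06) and Hnrnpc (0.07), while Ptges2, which hardly varied (0.11), was nearest to Hnrnpll (0.07), Edc4 (0.08) and Rab35 (0.08). The differences are a description over libraries that share the same 4 groups, with no test.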

How the data were processed

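The authors extracted RNA, selected poly(A) RNA with oligo-dT, and made libraries with dUTP strand marking and adapters that carry molecular identifiers. The submitters' processing notes name STAR 2.7.10a, Salmon 1.9.0, featureCounts 2.0.1 and the build mRatBN7.2. Which counter made the table, its strand setting and the use of the identifiers are not given in the sources used here, so reads of overlapping genes may not be separated. The values the authors deposited are raw counts, whole numbers for each gene symbol in each library, with no scaling.

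Differences were tested with edgeR 4.0.16 in R 4.3.3 (TMM, filterByExpr, quasi-likelihood test, separate fits for each comparison) and Benjamini-Hochberg adjustment over all genes tested. The study's methods use DESeq2, which served as an alternative here (1.42.0). Genes over 2-fold at an adjusted p below 0.05 were called. Standard errors and 95% intervals come from the same fits. Total counts of 11678450 to 13616935 per library set the precision, and limits from counts cover counting error only. For a group whose libraries all held 3 counts or fewer, a fold was computed against 3 counts per library. It used the mean of the other group and leaves out the spread of that group. Likeness of profiles was computed on log2 CPM (prior count 2) for genes with a mean of at least 1 CPM. Fits were tested on simulated data.

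The genes, lists, thresholds and naming rule were chosen with earlier results of these data known. Of each role list, the text names the 3 genes with the smallest p in the stroke comparison, the 3 in the acupuncture comparison and each gene called in either. Pla2g4a, Pla2g4b, Ptger1, Ptger4 and Ptgir were added after their values were seen. Markers covered microglia, neutrophils, monocytes and macrophages, oligodendrocytes, meninges, choroid plexus, neurons, endothelium and platelets, and the 4 red blood cell markers were not analysed here. Alternatives were a block for the replicate number, a single fit of the 12 libraries, DESeq2 and its RLE size factors, library size alone, a minimum of 10 counts in each library or of 1 count in all, other thresholds, and leaving out each library. For pathway genes outside the 8, these were added after seeing the data. Promoters came from RefSeq on GRCr8, and plots were drawn with matplotlib 3.10.9 in Python 3.11.15.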

Additional observations from a re-analysis of the deposited data

How the results depend on the processing

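The number of the 8 synthesis genes called moved by over 1.5 times under few alternatives. In the rt-PA comparison it was 1 with an unadjusted p, and between rt-PA+Acu and Sham it was 2 with DESeq2, 2 with an unadjusted p and 1 with the replicate block, in place of 0. Leaving out 1 library at a time gave 3 to 5 calls in the stroke comparison, 0 in the rt-PA comparison, 2 to 4 in the acupuncture comparison, 4 between rt-PA and Sham and 0 to 1 between rt-PA+Acu and Sham. Over all genes, DESeq2 called 72 in the rt-PA comparison where edgeR called 0, and 426 in place of 263 between rt-PA+Acu and Sham. With library size alone, the log2 difference of Ptgds in the acupuncture comparison was -0.11 and that of Ptges2 between rt-PA and Sham 0.10, both opposite in sign to the reported values. Signs also changed when single libraries were left out, with ranges of -0.72 to 0.32 for Ptgds and -0.12 to 0.0467 for Ptges2 in the acupuncture comparison, -0.15 to 0.0198 for Ptges2 between rt-PA and Sham, -0.0301 to 0.0515 for Ptges3 in the rt-PA comparison, -0.25 to 0.10 for Ptgs1 between rt-PA+Acu and Sham, -0.0374 to 1.09 for Mgst2 in the stroke comparison, and -0.11 to 0.66 for Ggt1 in the acupuncture comparison. None of these values was called, and the cause was not tested. Of the log2 fold changes of the 8 genes under the other alternatives, 271 kept their sign and side of the threshold, 1 lost its call, 4 gained one and 2 changed sign.

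Replicate numbers are shared by the groups, and the main fits did not treat the libraries as paired. Deviations of same-numbered libraries correlated between -0.121 and 0.144, and no comparison had all 3 correlations over 0.1. With 3 libraries per group, such correlations cannot exclude a weak factor shared by number. The replicate block changed the calls over all genes from 2765 to 2756 in the stroke comparison, from 1993 to 1862 in the acupuncture comparison and from 263 to 194 between rt-PA+Acu and Sham, and left 0 in the rt-PA comparison. Under the block the adjusted p of Tbxas1 in the stroke comparison was 0.0514, so that 4 of the 8 genes were called there, and in the acupuncture comparison those of Ptger2 and Tbxa2r were 0.0584 and 0.0687. In Model vs Sham each library correlated best with the library of its own number, which is a hint from the data and not the design. Depth limits Alox5, Ltc4s, Ptger4 and Ptgir, whose lowest groups held a few counts or none.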

Other observations

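The balance of the 2 cyclooxygenase transcripts was examined after their values were seen, as the ratio of Ptgs2 to Ptgs1 counts within each library. A ratio within a library does not depend on its scaling, but it does not correct for transcript length, so only its differences between groups can be read. It was 6.69, 4.83 and 6.28 in Sham, 13.9, 9.73 and 12.3 in Model, 7.95, 9.71 and 7.46 in rt-PA, and 7.57, 11 and 16.2 in rt-PA+Acu. The ratio was higher in each library of the 3 stroke groups than in each Sham library. It was also higher in each Model library than in each rt-PA library. That separation was slight, with Model replicate 2 at 9.73 and rt-PA replicate 2 at 9.71. In an exact two-sided permutation test p was 0.1 for Model vs Sham, rt-PA vs Model, rt-PA vs Sham and rt-PA+Acu vs Sham (0.125 adjusted over the 5 comparisons), and 0.1 is the smallest p that 3 libraries against 3 allow. For rt-PA+Acu vs rt-PA it was 0.3, with overlapping libraries.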
